A study of Mus musculus with 96 samples.

Results

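The cultures compared here were primary osteoblast cultures from 7 inbred mouse strains of the Collaborative Cross, 4 with high and 3 with low levels of macrophage RNA. The macrophage-rich set was CC055, CC007, CC032 and CC040 with 8 libraries, and the macrophage-poor set was CC002, CC005 and CC009 with 6 libraries. Together the sets hold 14 of the 96 samples and 7 of the 42 strains of the series. The sets were picked on the measured levels of macrophage genes, and those levels are therefore described below without a test. The question was which osteoblast and stromal genes change along with the myeloid genes.

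Total RNA was sequenced after ribosomal RNA removal. In every group the source was the calvaria, the flat bones of the skull, of pups 3 to 5 days old. Cells were freed with trypsin and collagenase, grown to confluence, and kept for 10 days under differentiation conditions, with ascorbic acid to support collagen and beta-glycerol phosphate as a phosphate source for mineral. The strains received no differing treatment, no step that removes blood cells appears in the labels' protocols, and the labels give neither sex nor litter. Each strain is a separate recombinant inbred genotype that descends from a shared set of founder strains, so a difference between the sets cannot be told apart from other differences between these 7 genotypes. Each of the 7 strains had 2 libraries. The labels do not say whether these came from separate animals or cultures. Libraries were averaged to a mean per strain, so the p-values measure only the spread between the means of these strains, except where libraries are named as units.

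Calvarial digests carry resident macrophages along with osteoblast precursors. Macrophages depend on signals through the CSF1 receptor, whose ligands CSF1 and IL-34 come largely from mesenchymal cells, and the same lineage gives rise to osteoclasts when RANKL is present. Macrophages lying on bone surfaces engulf dead cells and release factors such as oncostatin M that act on osteoblasts. Osteoblasts in turn pass from RUNX2-positive precursors through a matrix-making stage to mineralizing cells and osteocytes.

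Levels are in scaled TPM, a length-corrected share of the transcripts of a library, summed per gene and divided by a factor for each library. Differences between the sets are log2 differences of strain means after adding 0.5 to each value, with their standard errors, and were tested with limma over 15760 genes. Adjusted p-values are Benjamini-Hochberg values over all of these genes, and a gene was called below 0.05. A second comparison used the other 35 strains, none of whose libraries is in the sets: each gene was regressed on a myeloid score, the mean log2 level of 30 macrophage genes, and the slope is the log2 change per log2 unit of that score. Because TPM keeps no record of depth, the sequencing depth of each library is unknown. The share of TPM in protein-coding genes was 30.2% to 34.9% in the rich and 27.6% to 40.4% in the poor libraries, and 11346 to 12035 against 10783 to 11950 genes reached 1 TPM.

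The myeloid score was 5.28 in CC055, 5.03 in CC007, 4.97 in CC032 and 4.62 in CC040. In the poor set it was 1.25 in CC002, 1.11 in CC005 and 1.89 in CC009. The means of the sets, 4.97 and 1.42, lay 3.56 log2 units apart. Among 42 strains the rich set held ranks 2, 5, 6 and 7, and the poor set ranks 36, 40 and 41. Just outside the sets were CC024 at 5.25, CC071 at 5.17 and CC008 at 4.48 on the high side, and CC013 at 1.90, CC037 at 1.82 and CC035 at 1.25 on the low side. CC030 at 5.85 and CC041 at 1.10 were the extremes of the panel and belong to neither set. The 30 macrophage genes took 0.644% to 1.04% of protein-coding TPM in the rich strains and 0.0273% to 0.0783% in the poor strains. In bulk cultures, fewer cells of a type and less RNA per cell cannot be told apart.

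Lyz2, which encodes the lysozyme of phagocytes, was at 1311 in CC055, 931 in CC007, 1253 in CC032 and 1055 in CC040. In the poor strains it was at 105 in CC002, 24.4 in CC005 and 120.5 in CC009. Every rich strain was several times above every poor strain, and the ratio of the set means was 13.6. Single libraries ran from 845 to 1660 (median 1079) in the 8 rich and from 16.5 to 128.7 (median 104) in the 6 poor libraries. C1qa, a chain of complement C1q made by tissue macrophages, was at 190.4, 141, 208 and 143.03 in the rich strains, in the same order, and at 3.51, 7.26 and 12.2 in the poor strains. Its ratio of means was 22.3. Tyrobp, the adaptor that carries signals from activating myeloid receptors, was at 149, 136, 119 and 107 against 5.38, 4.53 and 16.5. CC009 was the highest of the poor strains for both genes and for the score. F13a1, the coagulation factor XIII subunit stored in resident macrophages, was at 243, 94.1, 97.3 and 73.3 against 6.3, 3.63 and 8.64, with CC055 well above the other rich strains. The ratio of means for Ctss, Fcer1g, C1qb and C1qc, a lysosomal protease, an Fc receptor chain and the other C1q chains, was 19, 17, 24.3 and 21.7. Strain means did not overlap for 29 of the 30 macrophage genes, and the median difference of the 30 was 3.89, both fixed by the choice of strains.

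**Figure D1:**
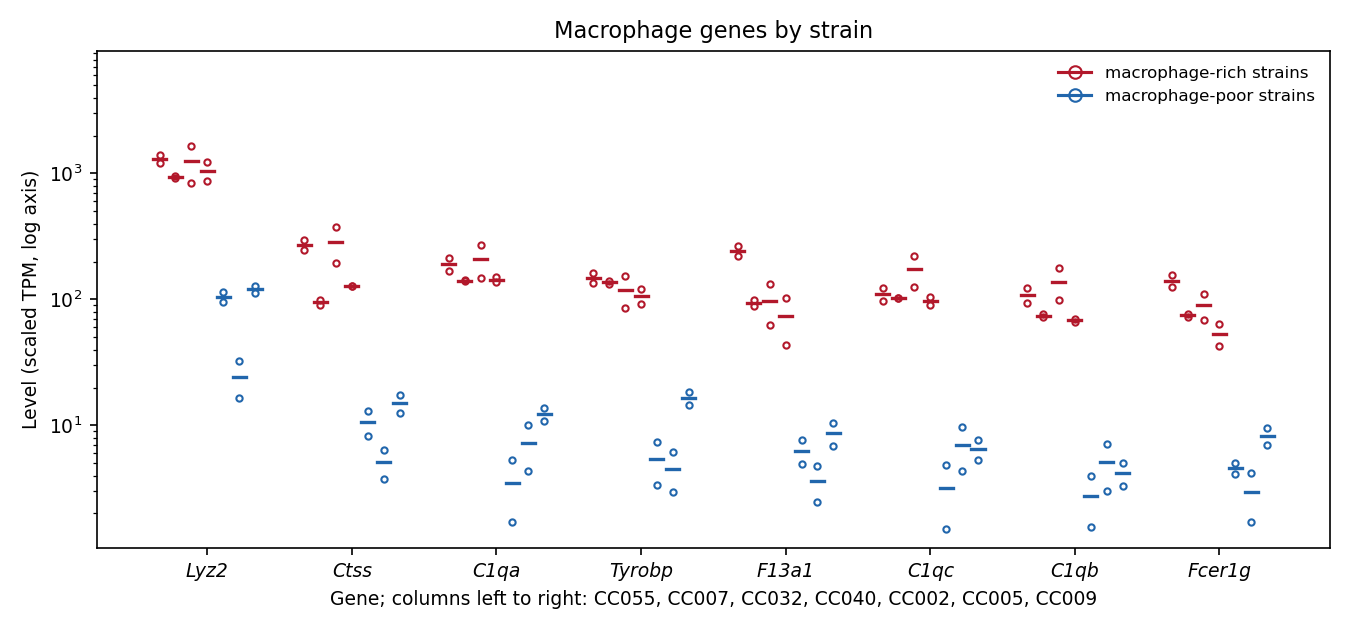
Levels of 8 macrophage genes, the highest of the macrophage list in the rich strains. The x axis gives the gene and, within it, the 7 strains from left to right, and the y axis gives scaled TPM on a log axis. Circles are libraries and bars strain means, red for rich and blue for poor strains; for Lyz2 the rich strains run from 931 to 1311 and the poor strains from 24.4 to 120.5.

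Promoters of some of these genes are shown because macrophage genes moved together and many are controlled by PU.1, the myeloid transcription factor encoded by Spi1. Spi1 itself was at 14.8, 9.41, 8.39 and 7.08 in the rich strains and 0.429, 0.458 and 0.621 in the poor strains. RefSeq windows of 250 bases before to 50 bases after a gene's start (GRCm38.p6) were searched for the 7 letters GAGGAAG on both strands, a PU.1-type core. In the table, 13.6% of 32851 windows held it, as did 12 of the 29 windows of macrophage genes, which come from 23 genes. By gene, the letters were in 10 of 23 (43.5%) against 15.4% of all 27025 genes. For comparison, 2 of the 16 osteoblast genes with a window held them. A second search used TGTGGTT, a RUNX-type core. It was in 3 of the 16 osteoblast genes (18.8%) and 2 of the 23 macrophage genes (8.7%), against 6.09% of all genes. The windows of Ibsp, Phospho1 and Alpl did not hold it. A match is a description of the letters and not a binding site. No window was available for Tyrobp or C1qa. The windows of C1qb, Fcer1g and Lyz2 did not hold GAGGAAG on either strand, which says only that the letters are not in these windows. Those of C1qc, Ctss and 1 of the 2 of F13a1 follow, chosen because they hold a match, 5′ to 3′ on the gene's strand, with each match or its reverse complement in capitals; the windows lie at chr4:136892865-136893164 on the minus strand, chr3:95526536-95526835 on the plus strand and chr13:37049164-37049463 on the minus strand. The other F13a1 window, at chr13:37050195-37050494, held 2 matches.
C1qc: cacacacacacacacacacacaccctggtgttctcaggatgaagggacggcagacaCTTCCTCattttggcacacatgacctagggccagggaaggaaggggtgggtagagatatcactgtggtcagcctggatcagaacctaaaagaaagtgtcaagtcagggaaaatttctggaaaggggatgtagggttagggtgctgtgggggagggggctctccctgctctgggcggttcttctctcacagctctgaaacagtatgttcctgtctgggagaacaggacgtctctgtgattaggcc
Ctss: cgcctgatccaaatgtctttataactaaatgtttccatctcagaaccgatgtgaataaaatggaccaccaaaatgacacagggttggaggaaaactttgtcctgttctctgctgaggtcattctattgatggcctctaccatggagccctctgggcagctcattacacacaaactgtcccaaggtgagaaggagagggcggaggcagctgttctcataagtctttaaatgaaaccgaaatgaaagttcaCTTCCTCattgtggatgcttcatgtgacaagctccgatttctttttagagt
F13a1: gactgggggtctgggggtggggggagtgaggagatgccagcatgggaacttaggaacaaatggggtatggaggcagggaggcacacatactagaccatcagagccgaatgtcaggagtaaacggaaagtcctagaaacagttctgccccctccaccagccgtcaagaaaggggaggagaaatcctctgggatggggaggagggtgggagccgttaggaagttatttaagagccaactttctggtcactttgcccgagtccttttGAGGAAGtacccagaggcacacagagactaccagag

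Genes of macrophage states varied between the rich strains. Pf4, a chemokine of resident macrophages, was at 129.6, 48.4, 152.3 and 63.4 in the rich and 2.01, 2.46 and 12.4 in the poor strains, and Stab1, a scavenger receptor, at 75.1, 58.9, 42.3 and 36.3 against 1.53, 1.99 and 2.95. Gpnmb, a glycoprotein of lipid-laden phagocytes that osteoblasts also make, was at 83, 74.8, 37 and 44.5 against 24.4, 22 and 31, a much smaller gap. Of 5 MHC class II genes measured, 4 had a positive difference, with a median of 0.87, and 2, Cd74 and H2-Aa, had rich strains above all poor strains, as 8.97% of all genes did. Cd74, the invariant chain, was at 1.56, 1.73, 1 and 1.31 against 0.311, 0.491 and 0.879. The 3 genes of highest level overlapped. H2-Ab1, which encodes a class II beta chain, was at 0.624, 0.0337, 13.8 and 8.46 in the rich strains and 4.07, 0 and 0.0597 in the poor strains. It was near 0 in CC007, CC005 and CC009 and highest in CC032, so the sets overlapped. H2-DMb1, which helps load class II peptides, was likewise lowest in those 3 strains, 2.51, 0.115, 7.26 and 10.6 against 9.22, 0.131 and 0.109. H2-DMa, its partner chain, was at 3.72, 3.64, 1.66 and 1.75 against 2.7, 3.58 and 3.09, with a difference below 0. The handling of strain alleles is not given, so the low values of H2-Ab1 and H2-DMb1 in those 3 strains do not show that the RNA was absent.

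Most osteoclast genes overlapped between the sets. Ctsk, the collagen-cutting protease of osteoclasts that calvarial cultures also make, was at 168.96, 211.3, 199 and 213 in the rich and 227, 103 and 189 in the poor strains. Acp5, the tartrate-resistant acid phosphatase, was at 4.52, 12.3, 4.57 and 11.5 against 5.13, 8.06 and 7.45. The sets overlapped for both. Tnfrsf11a, the receptor for RANKL that osteoclast precursors carry, was at 2.43, 1.87, 1.56 and 1.39 against 0.126, 0.108 and 0.18, and Atp6v0d2, a subunit of the proton pump, at 8.84, 2.52, 5.34 and 2.24 against 0.66, 0.908 and 0.959. These 2 of the 8 genes had rich strains above all poor strains. The median difference of the 8 osteoclast genes measured was 0.11. In the other 35 strains, none of which is in the sets, 3 of these 8 had a called positive slope, where 13.8% of all genes did. The slope of Tnfrsf11a was 0.61 ± 0.03 with a limma adjusted p of 2.1e-20. The score is made of macrophage genes and osteoclasts share the macrophage lineage, so these slopes are no separate evidence.

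Over all 15760 genes, 401 (2.54%) were called higher in the rich strains and 27 (0.171%) lower. The 401 include 35 genes (8.73%) of the myeloid lists. Their calls are no test, because the sets were picked on macrophage genes. A further 12 are in another list, and the other 88.3% are in none. Every count and share of the 401 includes the 35. The macrophage markers move with every difference in this comparison, and what share of a gene's difference is RNA of the macrophages themselves was not tested. Of the 401, 248 were under 1 scaled TPM in the poor strains, and 76 were at 5 or more. In the other strains, 2167 genes (13.8%) had a positive slope and 1476 (9.37%) a negative one at the same threshold. That split depended on scaling: positive slopes were 59.5% of the calls, 93.9% with the deposited TPM unscaled and 80.5% with protein-coding TPM. Of the 401 genes called higher, 92.0% also had a positive slope, and these are 17.0% of the genes with a positive slope. Of the 27 called lower, 5 (18.5%) had a negative slope. The count of 401 went as low as 221 without CC002, 249 without CC009 and 257 without CC005, and the 27 became 12 without CC032, 16 without CC002 and 49 without CC005. Strain means did not overlap, with the rich strains above, for 8.97% of all genes, and with the rich strains below for 5.89%.

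**Figure D2:**
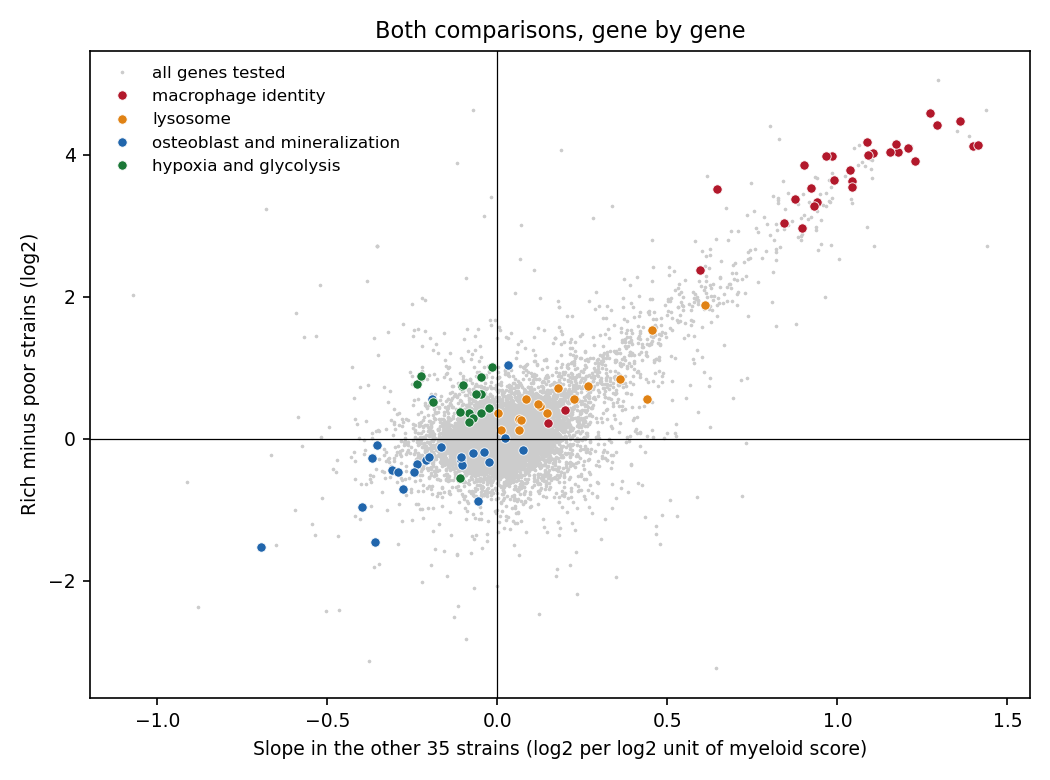
Each point is a gene, with its slope on the myeloid score in the other 35 strains on the x axis and its log2 difference between rich and poor strains on the y axis. Grey points are all 15760 genes and colours mark macrophage, lysosome, osteoblast and hypoxia and glycolysis genes; the macrophage genes lie at a median of 1.04 and 3.89 and the osteoblast genes at -0.20 and -0.30.

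No gene of osteoblast identity or mineralization was called between the sets. Of 24 such genes, limma called 0 higher and 0 lower, against backgrounds of 2.54% and 0.171%, and at an unadjusted p under 0.05 it found 1 higher and 2 lower, where 9.16% of all genes were higher and 5.38% lower at that threshold. The lowest adjusted p was 0.18. Their median difference was -0.30, against -0.01 for all genes, and 21 of 24 were below 0. That median was -0.16 without CC032, -0.55 without CC007 and -0.73 with the number in the sample titles as a covariate. The summed level of the 24 genes ranged from 13329.7 to 28155 in the rich and from 19485 to 23929 in the poor libraries, so the rich libraries spread on both sides of the poor ones.

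Smpd3, a sphingomyelinase needed for normal mineralization, had the lowest p of the list and was the only member whose rich strains all lay below the poor ones. It was at 12.4 in CC055, 23.4 in CC007, 12.2 in CC032 and 18.9 in CC040. In the poor strains it was at 28 in CC002, 28.1 in CC005 and 39.8 in CC009. By library the range was 8.3 to 25.8 (median 16.8) against 22.8 to 43.1 (median 31.5), so single libraries of the sets overlapped slightly. The difference was -0.97 ± 0.28 (limma, adjusted p = 0.18), which did not pass. Mmp13, the collagenase of late osteoblasts, lay the other way, at 979, 999, 1599 and 1218 in the rich and 338, 858 and 639 in the poor strains. All rich strains were above all poor strains, with a difference of 1.04 ± 0.35 that also missed the threshold (adjusted p = 0.24). Non-overlap in 1 of 24 genes on each side lies below the background shares of 8.97% and 5.89%.

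The transcription factors and enzymes of the lineage overlapped between the sets. Sp7, which encodes osterix, the factor that commits precursors to bone, was at 16.2, 46.1, 20.6 and 27.9 in the rich and 36.7, 41.1 and 29.9 in the poor strains, a difference of -0.48 ± 0.35 (adjusted p = 0.6). CC007 was above every poor strain and CC055, CC032 and CC040 below all of them. Runx2, the master factor of the lineage, was at 12.5, 15.8, 8.75 and 12.7 against 13.9, 13.5 and 16.6 (adjusted p = 0.62). Alpl, the phosphatase that frees phosphate for mineral, was at 106, 258, 136 and 181 against 184, 208 and 185 (adjusted p = 0.75). In both genes the poor strains fell inside the range of the rich strains or close to its top, and CC007 was again high among the rich strains.

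The secreted matrix proteins showed the same spread. Col1a1, the main collagen of bone, was at 1413, 3427, 1934 and 1650 in the rich and 2377, 1910 and 2158 in the poor strains, a difference of -0.17 ± 0.31 (adjusted p = 0.86). Ibsp, bone sialoprotein, was at 1432, 1836, 1262 and 1653 against 1557, 2006 and 1354, a difference of -0.08 ± 0.20 (adjusted p = 0.9). Bglap2, an osteocalcin gene of mature osteoblasts, was at 235.1, 1322, 211.7 and 341 against 849.6, 890.0 and 1674. CC055, CC032 and CC040 were below all 3 poor strains and CC007 was not, and the difference of -1.53 ± 0.70 did not pass (adjusted p = 0.39). Bglap2 and its neighbour Bglap are near-identical copies, so the reads each received are uncertain.

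**Figure D3:**
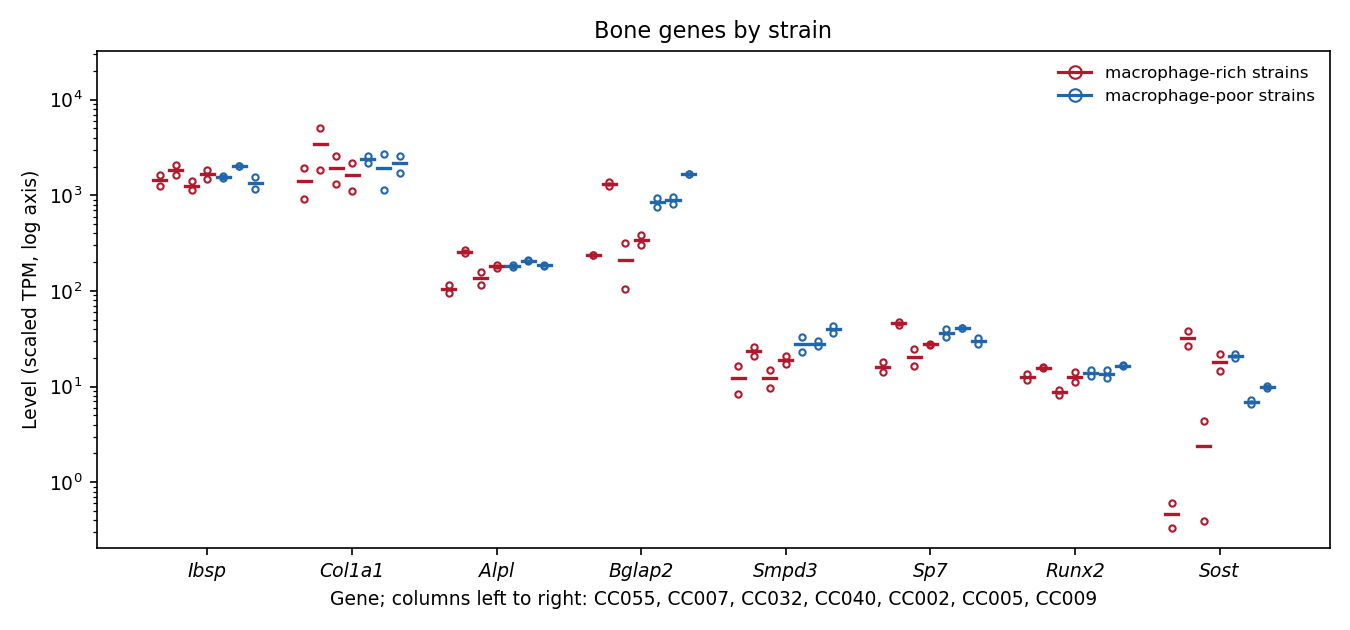
Levels of 8 genes of osteoblasts and osteocytes. The x axis gives the gene and, within it, the 7 strains from left to right, and the y axis gives scaled TPM on a log axis; circles are libraries and bars strain means, red for rich and blue for poor strains. CC007, the second red column of each gene, is the highest rich strain for all 8, for example 46.1 for Sp7 against 16.2 in CC055.

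Osteocyte genes gave no call either: limma found 0 of 8 in both directions, where 2.54% of all genes were called higher and 0.171% lower. At an unadjusted p under 0.05 it found 1 higher and 0 lower, where 9.16% and 5.38% of all genes were. Sost, the Wnt inhibitor of osteocytes, was at 0.467, 32.5, 2.37 and 18.2 in the rich and 20.9, 6.91 and 9.84 in the poor strains. CC055 and CC032 were below every poor strain, CC007 was above every one and CC040 was among them, and the difference of -1.01 ± 1.31 had an adjusted p of 0.78. Among the rich strains CC007 was highest and CC040 next for both Sost and Bglap2.

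In the other 35 strains, 4 of the 24 osteoblast genes had a negative slope and none a positive one, where 9.37% and 13.8% of all genes did. At an unadjusted p under 0.05 limma found 12 negative and 0 positive, where 14.9% and 19.5% of all genes were, and the median slope was -0.20 against 0.00 for all genes. The 4 genes were Sp7, Smpd3, Ibsp and Phospho1, the phosphatase that supplies phosphate inside matrix vesicles. Sp7 had a slope of -0.29 ± 0.08 (adjusted p = 0.0084) and Smpd3 one of -0.40 ± 0.12 (adjusted p = 0.017). The slopes of Ibsp and Phospho1 were -0.35 ± 0.11 and -0.37 ± 0.12, with adjusted p-values of 0.021 and 0.019. Among osteocyte genes, Ptprz1, a receptor phosphatase of the lineage, and Irx5, a homeobox factor, had negative slopes of -0.47 ± 0.16 and -0.18 ± 0.06 (adjusted p = 0.026 and 0.036). Fgf23, the phosphate-lowering hormone, had a positive slope of 0.07 ± 0.02 (adjusted p = 0.041) at a median level of 0.0311 in these strains, a call lost without a filter on low values, without CC041 and with only strains of 2 or more libraries.

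The negative slopes rested on CC030 and CC071, which ranked 1 and 4 for the myeloid score and had the lowest Smpd3 and Ibsp of the panel. Without both strains the count of osteoblast genes called became 0 in each direction and the median slope -0.04. Sp7 then had a slope of -0.11 (adjusted p = 0.41), Smpd3 one of -0.12 and Ibsp one of -0.09. Over the alternatives tried, the adjusted p ranged from 0.0019 to 0.41 for Sp7 and from 0.0025 to 0.57 for Smpd3. The calls of Phospho1, Ptprz1 and Irx5 were also lost without these 2 strains, that of Irx5 also with unscaled or protein-coding TPM and without a filter on low values.

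**Figure D4:**
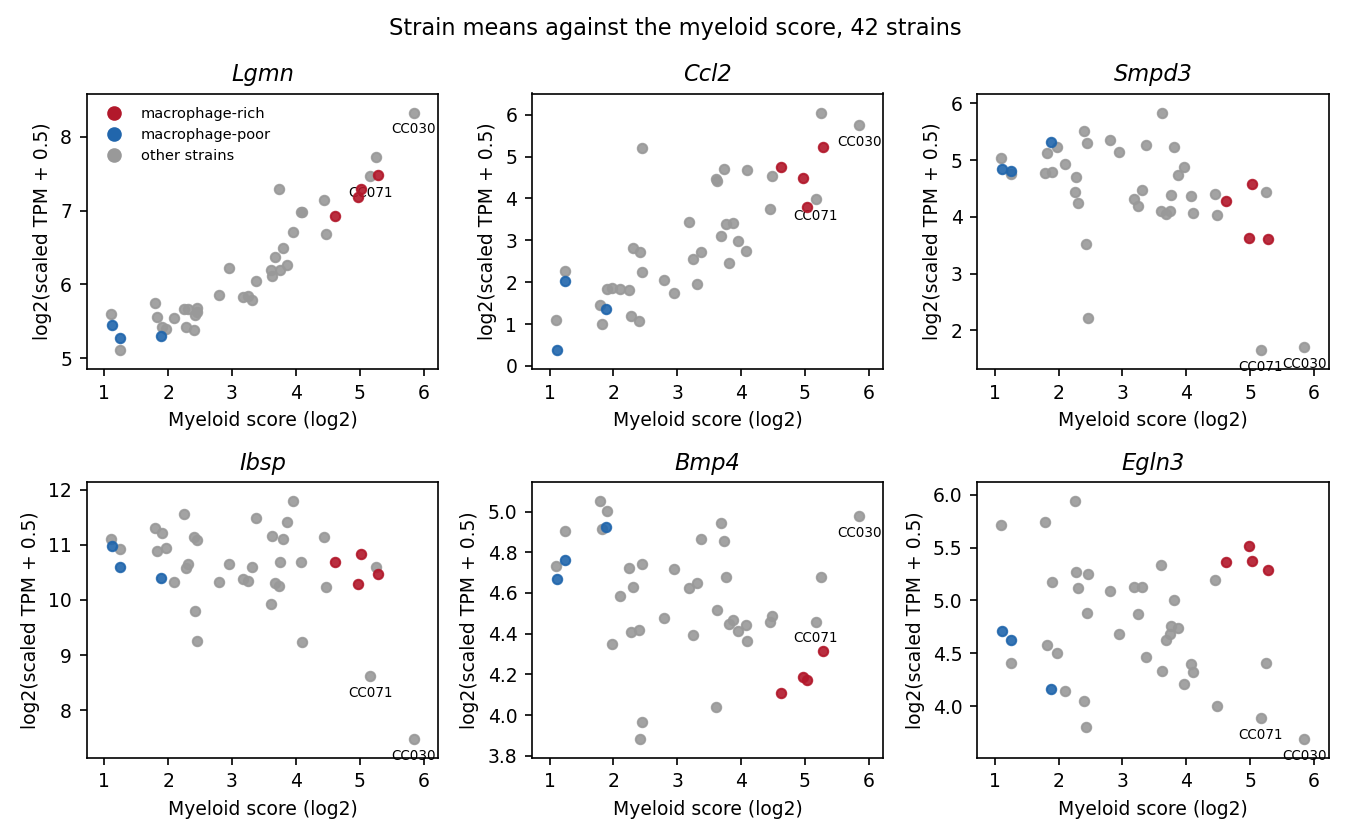
Strain means of 6 genes, as log2 of scaled TPM + 0.5 on the y axes, against the myeloid score on the x axes; each point is one of 42 strains, red for rich, blue for poor and grey for the other 35. Lgmn and Ccl2 go up with the score throughout, with slopes of 0.61 and 0.92 in the grey strains; in Smpd3 and Ibsp the named strains CC030 and CC071 lie lowest.

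Collagens and other matrix genes were not called between the sets. Limma found 0 of 25 in both directions, with 0 higher and 2 lower at an unadjusted p under 0.05 (9.16% and 5.38% of all genes), a median difference of -0.19 and 18 of 25 below 0. In the other strains the median slope was 0.09, with 5 genes called positive and 1 negative, where 13.8% and 9.37% of all genes were. Col6a3, a chain of pericellular collagen VI, had a slope of 0.16 ± 0.04 (adjusted p = 0.005) and Prelp, a leucine-rich matrix protein, one of 0.27 ± 0.08 (adjusted p = 0.012). Without CC030 and CC071, 0 of the 25 were called, and with unscaled TPM 11 were positive and 0 negative. Between the sets Col6a3 was at 159.9, 138, 184 and 111 against 221, 110.2 and 179.7, with full overlap.

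Stromal progenitor and fibroblast genes were likewise not called between the sets. Limma called 0 of 20 in each direction and found 0 in each at an unadjusted p under 0.05 (9.16% higher and 5.38% lower over all genes), with a median of -0.03. In the other strains 6 of the 20 had a called positive slope and 0 a negative one, where 13.8% and 9.37% of all genes did. Col4a1, a basement membrane collagen, had a slope of 0.26 ± 0.04 (adjusted p = 2.8e-05). It was at 87.2, 53, 74.6 and 43.7 in the rich and 81.9, 40.1 and 66.1 in the poor strains. Cd34, a surface mucin of adventitial progenitors, had a slope of 0.37 ± 0.10 (adjusted p = 0.0067) and was at 14.1, 5.93, 6.56 and 4.25 against 8.3, 1.63 and 8.72. CC055 was the highest and CC005 the lowest of the 7 strains for Cd34, and the sets overlapped. Without CC030 and CC071, 1 of the 20 kept a positive slope, and the call of Cd34 was lost.

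CC005 stood below the other poor strains for a series of fibroblast, tendon and cartilage genes. Tnmd, which encodes the tendon protein tenomodulin, was at 245 in CC002, 32 in CC005 and 309.5 in CC009 and at 181, 107, 99.5 and 81.1 in the rich strains. Matn4, a matrix filament protein, was at 149, 21.1 and 116 in the poor and 71.7, 87.8, 69.4 and 48.3 in the rich strains. Sfrp2, a secreted Wnt modulator of fibroblasts, was at 364.3, 23.9 and 263 against 171, 58.1, 68.4 and 41. In all 3 genes CC002 and CC009 were above every rich strain and CC005 below every one, and no difference between the sets passed (adjusted p = 0.92, 0.97 and 0.78). Without CC005 the median difference of the stromal list went from -0.03 to -0.31 and that of the matrix list from -0.19 to -0.52, where 1 matrix gene was called lower. Slopes in the other strains were positive for Tnmd (0.31 ± 0.10, adjusted p = 0.018), Matn4 (0.24 ± 0.08, adjusted p = 0.026) and Sfrp2 (0.59 ± 0.12, adjusted p = 0.00035); those of Tnmd and Matn4 were lost without CC030 and CC071, Matn4 also without CC041, and that of Sfrp2 was not.

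Markers of further cell types that a calvarial digest can hold gave few calls between the sets. Of 11 adipocyte genes 1 was called higher, of 4 endothelial genes 1, and of 18 cartilage, 11 tendon and suture and 11 smooth muscle genes 0, where limma at an unadjusted p under 0.05 found 0 higher and 1 lower, 1 and 1, and 1 and 1. Over all genes 2.54% were called higher, and at the unadjusted threshold 9.16% were higher and 5.38% lower. The adipocyte gene was Cd36, a fatty acid and scavenger receptor that macrophages also carry, at 9.88, 20.4, 20.2 and 13.4 in the rich and 0.602, 0.422 and 3.03 in the poor strains. Its difference was 3.37 ± 0.52 (adjusted p = 0.024) and its slope in the other strains 0.83 ± 0.11. Kdr, a VEGF receptor, was the endothelial gene, at 0.964, 0.445, 0.742 and 0.568 against 0.0353, 0.0201 and 0.0684, with a difference of 1.09 ± 0.15 (adjusted p = 0.016) and a slope of 0.27 ± 0.03. The call of Cd36 was lost when CC002, CC032, CC040, CC005 or CC007 was left out, and that of Kdr without CC002, CC032, CC009 or CC005. That of Cd36 was also lost without a filter on low values and with the title number as a covariate, and that of Kdr without CC040 and CC009 together. The calls of Cd36 and Kdr were kept in 24 of 31 and 25 of 30 alternatives. The summed level of the endothelial list was 1.34 to 2.69 in the rich and 0.581 to 1.83 in the poor libraries, and that of the adipocyte list 57.9 to 101.2 against 35.5 to 104.8. Of 21 granulocyte, mast cell and lymphoid markers, 7 were at 0 in all 14 libraries (S100a9, Elane, Cma1, Fcer1a, Cd3e, Cd3g and Nkg7). The 21 summed to 1.18 to 2.89 scaled TPM in the rich and 0.958 to 3.02 in the poor libraries. Limma called 0 of the 4 that passed the filter, with 1 higher, S100a8, and 1 lower, Mpo, at an unadjusted p under 0.05. Of 7 erythroid genes Hbb-bs and Hbb-bt, and of 9 skeletal muscle genes Myod1 and Pax7, were at 0 in all 14. The erythroid list summed to 0.205 to 0.596 in the rich and 0.217 to 1.04 in the poor libraries, and the muscle list to 1.21 to 2.83 and 1.05 to 2.74.

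The growth factors on which macrophages and osteoclasts depend were not called between the sets. Csf1, the main macrophage growth factor, was at 36 in CC055, 37.9 in CC007, 35.2 in CC032 and 33.1 in CC040, and at 44.7 in CC002, 38.9 in CC005 and 38.6 in CC009. All rich strains lay below all poor strains by a small margin, -0.19 ± 0.08, which did not pass (adjusted p = 0.33). Il34, the other ligand of the receptor, was at 8.14, 4.1, 5.76 and 2.99 against 8.38, 2.85 and 6.25 (adjusted p = 0.94). Its slope in the other strains was 0.20 ± 0.06 (adjusted p = 0.014), a call lost without CC030 and CC071. Tnfsf11, which encodes RANKL, was at 4.31, 4.2, 10.2 and 6.86 against 3.13, 2.57 and 2.35, with no overlap and a difference of 1.03 ± 0.31 that missed the threshold (adjusted p = 0.2). Tnfrsf11b, its decoy receptor osteoprotegerin, overlapped fully at 23.8, 5.07, 14.9 and 5.73 against 8.23, 12.5 and 9.96 (adjusted p = 1). Csf2 was at 0 in all 14 libraries.

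The chemokines Ccl2, Ccl7 and Ccl9 were higher in the rich strains. Of 18 genes for colony-stimulating factors, RANKL signals and chemokines, 3 were called higher and 0 lower, where 2.54% and 0.171% of all genes were. In the other strains 8 had a called positive slope and 0 a negative one, where 13.8% and 9.37% of all genes did. Ccl2, which draws monocytes through CCR2, was at 37.6 in CC055, 13.5 in CC007, 22.6 in CC032 and 26.3 in CC040. In the poor strains it was at 3.84 in CC002, 0.794 in CC005 and 2.25 in CC009. By library it ran from 12.4 to 44.1 (median 26.3) against 0.793 to 5.29 (median 1.85). The lowest rich strain was above the highest poor strain, with a difference of 3.31 ± 0.47 (adjusted p = 0.018) and a slope of 0.92 ± 0.13. Ccl7, a neighbouring chemokine for the same receptor, was at 35.5, 12.7, 31 and 29.5 against 6.28, 3.38 and 3.81, with a difference of 2.43 ± 0.37 (adjusted p = 0.024) and a slope of 0.50 ± 0.14. CC007 was the lowest of the rich strains for both. Ccl9, a macrophage chemokine, differed by 2.93 ± 0.54 (adjusted p = 0.048), and Ccl8, a further ligand of the family, by 2.99 ± 0.70, which did not pass (adjusted p = 0.11), while its slope of 1.09 ± 0.19 did (adjusted p = 4.7e-05). The call of Ccl2 between the sets was lost without CC032, CC009 or CC040, and those of Ccl7 and Ccl9 without any 1 of CC002, CC009, CC055, CC040 and CC005, Ccl7 also without CC032 or CC002 replicate 2 and Ccl9 also without CC007 or any of 5 single libraries. All 3 calls were also lost without a filter on low values, with the title number as a covariate and without CC040 and CC009 together. Those of Ccl2 and Ccl7 were lost with all 42 strains in 1 fit, and that of Ccl9 with a pseudocount of 1. Of 31 alternatives the calls of Ccl2, Ccl7 and Ccl9 were kept in 24, 20 and 16. The sets and the score rest on macrophage genes, so for chemokines that macrophages express neither comparison is separate evidence.

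Among 16 macrophage products and their stromal receptors, 3 genes were called higher in the rich strains and 1 lower, where 2.54% and 0.171% of all genes were. Osm, oncostatin M, was at 1.23, 0.549, 0.595 and 0.622 in the rich and 0.0593, 0.0204 and 0.0278 in the poor strains, a difference of 1.18 ± 0.18 (adjusted p = 0.024) at a low level. Osmr, its receptor on osteoblasts, was at 22.2, 12.4, 27.9 and 19.2 against 12.4, 13.4 and 11.2 and was not called (adjusted p = 0.32). Pdgfb, a mitogen for pericytes and osteoprogenitors, was at 2.07, 1.32, 2.45 and 1.64 against 0.276, 0.443 and 0.307, a difference of 1.47 ± 0.18 (adjusted p = 0.01). Il1rn, the interleukin-1 receptor antagonist, differed by 2.31 ± 0.37 (adjusted p = 0.028). Slopes in the other strains were 0.31 ± 0.03, 0.32 ± 0.06 and 0.50 ± 0.08 for Osm, Pdgfb and Il1rn, all positive and called. The sets and the score both rest on macrophage genes, so for products that macrophages express neither comparison is separate evidence. The call of Pdgfb was lost without CC002 or CC009, that of Osm without any strain but CC055 and CC007, and that of Il1rn without any strain but CC040 and CC007. All 3 were also lost without CC040 and CC009 together, and those of Osm and Il1rn with the title number as a covariate or without a filter on low values.

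Bmp4, a bone morphogenetic protein that drives osteoblast differentiation, was lower in the rich strains. It was at 19.5 in CC055, 17.6 in CC007, 17.8 in CC032 and 16.9 in CC040, and at 26.9 in CC002, 24.9 in CC005 and 30.1 in CC009. Libraries ran from 14.6 to 21.8 (median 17.9) against 23.1 to 33.5 (median 26.2). The rich strains lay within a narrow band below every poor strain, a difference of -0.59 ± 0.08 (adjusted p = 0.017). In the other 35 strains its slope was -0.02 ± 0.04 (adjusted p = 0.73), and its sign turned positive with unscaled or protein-coding TPM, again without a call. Levels there ran from 14.3 to 32.7, so both sets fell inside the range of the panel. The call was kept in 20 of 31 alternatives, with adjusted p from 0.0075 to 0.17. It was lost with unscaled TPM, with all 42 strains in 1 fit, with libraries as units and the strain as a block, with the number in the sample titles as a covariate, and without CC002, CC032, CC009, CC007, CC002 replicate 1, CC055 replicate 2, or CC040 and CC009 together.

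All 16 lysosome genes had a positive difference between the sets, with a median of 0.52. Of the 16, 10 had rich strains above all poor strains, where 8.97% of all genes did so. Called higher was 1 of the 16, where 2.54% of all genes were. That gene was Lgmn, which encodes legumain, an asparagine-specific protease of phagocyte lysosomes. It was at 180.0 in CC055, 157 in CC007, 151 in CC032 and 121 in CC040, and at 38.3 in CC002, 43.3 in CC005 and 38.9 in CC009. Library values, 111 to 196.8 (median 157) against 34.8 to 45 (median 40.9), did not overlap either. The sets were far apart relative to the spread within each, with a difference of 1.88 ± 0.14 (adjusted p = 0.0015) that was called in all 31 alternatives, with adjusted p from 2.7e-05 to 0.04. Ctsb, cathepsin B, was at 307, 189, 381 and 160.5 against 80.8, 83.2 and 86.8 without overlap and narrowly missed the threshold (adjusted p = 0.06). In the other strains 10 of 16 had a called positive slope, where 13.8% of all genes did. It was 0.61 ± 0.04 for Lgmn, 0.45 ± 0.04 for Ctsb and 0.44 ± 0.04 for Grn, the progranulin gene. The sets and the score both rest on macrophage genes. For lysosome genes that macrophages express, Lgmn among them, neither comparison is therefore separate evidence.

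Outside all lists, 48 protein-coding genes that reached 5 scaled TPM in the poor strains were called higher in both comparisons without overlap, and 5 were called lower. Being in no list does not make a gene independent of the choice of sets. The sets and the score both rest on macrophage genes, so for genes that macrophages express the higher calls are no separate evidence. Plau, the urokinase protease, was at 105, 67.7, 74.7 and 71.7 in the rich and 6.82, 17.9 and 13.3 in the poor strains, a difference of 2.67 ± 0.33 (adjusted p = 0.0099). Apoe, the lipid carrier of macrophages and of many mesenchymal cells, was at 496, 617, 376 and 411 against 107, 44.4 and 87.3, a difference of 2.64 ± 0.33 (adjusted p = 0.0096). Next by size were Ctsc (2.45), a protease that activates granule enzymes, Sirpa (1.92), the phagocyte receptor for CD47, Cotl1 (1.88), an actin-binding protein, Unc93b1 (1.81), the chaperone of endosomal Toll-like receptors, Evi2a (1.56) and Tpd52 (1.55). Their slopes in the other strains ran from 0.33 for Tpd52 to 0.82 for Plau. The 5 lower genes had small differences. Xrcc5, a DNA end-joining subunit, was at 7.31, 9.82, 8.02 and 8.25 against 12.4, 12.9 and 12.9 (-0.59 ± 0.10, adjusted p = 0.034), and Elp3, a catalytic subunit of the Elongator complex, at 23.8, 20.8, 22.3 and 22.8 against 33.8, 34.1 and 31.8 (-0.56 ± 0.06, adjusted p = 0.0069). Acy1, an aminoacylase, Mbtps1, a Golgi protease, and Sec31a, a coat protein of secretory vesicles, differed by -0.54, -0.39 and -0.37. With unscaled TPM none of these 5, nor Cotl1 or Unc93b1, was called between the sets. The called slopes of Xrcc5, Elp3, Mbtps1 and Sec31a were also lost with unscaled TPM, and that of Acy1 was not. Those of Mbtps1 and Sec31a were lost without CC030 and CC071 as well. Between the sets, the call of Sec31a was kept in only 9 of 31 alternatives. Left out singly, no strain ended the calls of Plau, Apoe, Ctsc, Sirpa, Tpd52 or Elp3. Those of Apoe, Ctsc, Sirpa, Tpd52 and Elp3 were lost with the title number as a covariate, and those of Plau, Apoe, Ctsc, Sirpa and Elp3 without CC040 and CC009 together. For Cotl1, Unc93b1, Evi2a, Xrcc5, Acy1, Mbtps1 and Sec31a, leaving out any of 4 or more single strains did, CC002 and CC032 among them.

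Gpx8, a peroxidase of the endoplasmic reticulum that stromal cells make, was chosen after its values were seen. At 88, 90.2, 75.6 and 72.8 in the rich and 138, 155 and 142 in the poor strains, it had the highest level in the poor strains of the 27 genes called lower, with a difference of -0.83 ± 0.10 (adjusted p = 0.0075). Its slope in the other strains was 0.00 ± 0.04 (adjusted p = 0.99). The call between the sets was lost with the title number as a covariate and without CC040 and CC009 together.

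Atf3, a stress-induced transcription factor, was higher in the rich strains. It was at 14.9 in CC055, 12.8 in CC007, 11.8 in CC032 and 11.6 in CC040, and at 3.8 in CC002, 4.43 in CC005 and 4.11 in CC009. The difference of 1.53 ± 0.11 (adjusted p = 0.0015) was called in all 31 alternatives, with adjusted p from 1.1e-05 to 0.028. Its slope in the other strains was 0.14 ± 0.07 (adjusted p = 0.16), called only with unscaled TPM (adjusted p = 0.038, the lowest of a range that reached 0.58). It was 1 of 12 immediate early and stress genes called, where 2.54% of all genes were called higher. Of the 12, 11 had a positive difference, with a median of 0.32.

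Most hypoxia and glycolysis genes had a positive difference, and Egln3 and Bnip3 were called higher. Of 16 genes, 15 had a positive difference with a median of 0.57, and 12 had rich strains above all poor strains, where 8.97% of all genes did. Called higher were 2 of the 16, where 2.54% of all genes were. Egln3, an oxygen sensor that hypoxia induces, was at 38.6 in CC055, 41.1 in CC007, 45.1 in CC032 and 40.6 in CC040. In the poor strains it was at 24.6 in CC002, 25.9 in CC005 and 17.6 in CC009. The rich strains lay close together above all poor strains, with a difference of 0.88 ± 0.14 (adjusted p = 0.026). Bnip3, a mitophagy protein induced by low oxygen, was at 276, 290.2, 335 and 277 against 179.5, 197.02 and 147, a difference of 0.76 ± 0.13 (adjusted p = 0.031). Slc2a1, the glucose importer GLUT1, and Gapdh, a glycolytic enzyme, differed by 0.87 ± 0.26 and 0.75 ± 0.22 without a call (adjusted p = 0.19 and 0.19). Pdk1, a kinase that inhibits pyruvate dehydrogenase, was the only gene of lower level in the rich strains, -0.55 ± 0.22 (adjusted p = 0.32). It was called lower when CC055 was left out (adjusted p = 0.019, within 0.019 to 0.62 over the alternatives). The call of Bnip3 was lost with unscaled TPM, and both calls were lost without a filter on low values, with all 42 strains in 1 fit, with the title number as a covariate and without CC040 and CC009 together. That of Egln3 was lost without any 1 of CC002, CC032, CC055, CC040 and CC007, that of Bnip3 without any strain but CC005, and both without CC002 replicate 2, CC009 replicate 1 or CC005 replicate 2, Bnip3 also without CC055 replicate 2.

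The slopes of the same 16 genes in the other 35 strains were all below 0, with a median of -0.08. Limma called 4 negative and 0 positive, where 9.37% and 13.8% of all genes were. With unscaled TPM 5 of the 16 slopes were above 0 and none was called. Egln3 was the only gene of the 401 with a called negative slope, -0.23 ± 0.07 (adjusted p = 0.022); that call was lost with unscaled TPM, without CC030 and CC071, and without CC041. Pkm, which encodes pyruvate kinase, had a slope of -0.11 ± 0.03 (adjusted p = 0.0013) and Ldha, lactate dehydrogenase A, one of -0.08 ± 0.03 (adjusted p = 0.024), a call that was also lost with protein-coding TPM, without CC030 and CC071 and without CC041. The slope on the myeloid score within the 7 strains was larger than in the other 35 for 15 of the 16 genes. A limma test of that difference over all genes, chosen after the values were seen, called 0 of 15760 genes (0.0%), with a lowest adjusted p of 0.19. At an unadjusted p under 0.05 it found 1714 genes, 10.9% of those tested, 14 of the 16 among them. For Egln3 the difference in slope was 0.45 ± 0.12 (adjusted p = 0.22).

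**Figure D5:**
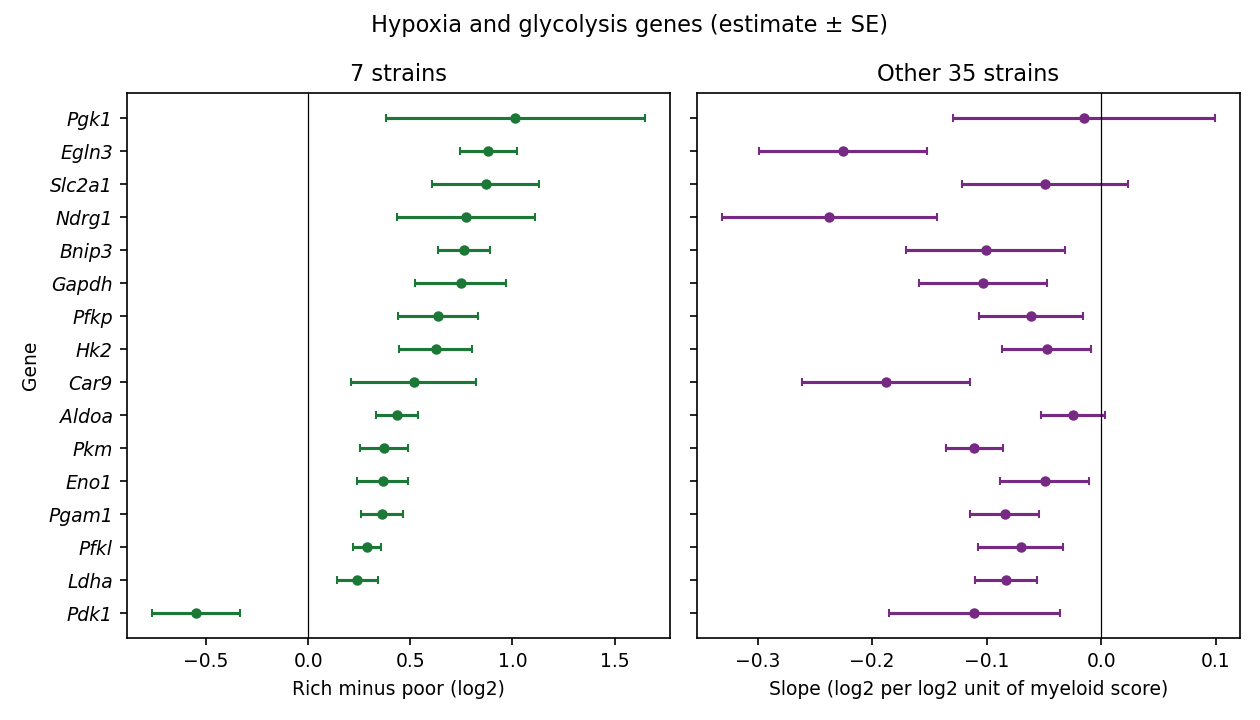
Estimates with standard errors for the 16 hypoxia and glycolysis genes. The left panel gives the log2 difference between rich and poor strains over 7 strains and the right panel the slope on the myeloid score over the other 35, both on the x axes, with the genes on the y axis in the same order; 15 of 16 points lie above 0 on the left and 0 of 16 on the right.

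The interferon, acute phase, Wnt, and BMP and TGF-beta lists gave no call between the sets. Bmp4, called lower in the rich strains, was counted among the macrophage products and their stromal receptors and is not in the BMP list. Interferon response genes had a positive difference in 16 of 16, with a median of 0.56, and limma called 0 in each direction, with 2 higher and 0 lower at an unadjusted p under 0.05, against 9.16% and 5.38% of all genes. Without CC002 the median was 0.22 with 12 of 16 positive, without CC005 it was 0.29 with 13 positive, and without CC009 it was 1.07 with 2 genes called higher. With the title number as a covariate it was 1.29. In the other strains 7 of 16 had a called positive slope, where 13.8% of all genes did. Oas1a, an antiviral sensor of double-stranded RNA, was at 5.18, 4.36, 5.16 and 3.56 in the rich and 0.27, 0.278 and 5.22 in the poor strains, where CC009 alone reached the level of the rich strains. Its slope was 0.62 ± 0.11 (adjusted p = 5.1e-05), and without CC009 the difference between the sets was called as well (adjusted p = 0.0057, within a range of 0.0057 to 0.5 over the alternatives). Of 16 acute phase and inflammatory genes 0 were called between the sets (3 higher and 0 lower at an unadjusted p under 0.05). In the other strains 4 had a called positive slope, where 13.8% of all genes did. Among them was C3, the central complement component, at 0.72 ± 0.15 (adjusted p = 0.00034). Of 22 Wnt genes limma called 0 (0 higher and 1 lower unadjusted) and of 27 BMP and TGF-beta genes 0 (2 higher and 3 lower unadjusted). Bmp3, a BMP antagonist of osteoblasts, had a negative slope of -0.33 ± 0.08 (adjusted p = 0.0016) that was lost without CC030 and CC071, and Ltbp2, a microfibril protein, a positive one of 0.50 ± 0.09 (adjusted p = 0.00011) that was not. Of 16 proliferation genes 0 were called between the sets (1 higher and 0 lower unadjusted). Of 14 genes of the secretory pathway 0 were called (1 higher and 0 lower unadjusted). In the other strains 5 of the 14 had a called negative slope, where 9.37% of all genes did, and none with unscaled TPM.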

How the data were processed

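Total RNA libraries of cultured calvarial osteoblasts from 42 strains were used as deposited by the authors, as TPM per transcript. Each column sums to 1000000. Per the submitters' processing notes, Bowtie and the build mm9 were used; the quantification tool, versions and the handling of strain alleles are not given in the sources used here. Of 94545 transcripts, 91225 matched the GRCm38 annotation by identifier and were summed into 37945 genes; 1 more line names no transcript and is 0 throughout. No gene coordinates are taken from the values. Promoter windows come from RefSeq (GRCm38.p6). No count test applies to TPM, and depth is not recorded.

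The 2 runs of one CC030 sample were averaged, which gave 95 libraries. A trimmed mean of log ratios (30% of ratios and 5% of levels trimmed, genes averaging 1 TPM or more) gave factors of 0.793 to 1.25. The 15760 genes that reached 0.5 TPM in no fewer than 2 libraries were kept, log2(scaled TPM + 0.5) was averaged per strain, and limma 3.58.1 in R 4.3.3 was fitted with a variance trend to 7 strain means (4 against 3) and, for slopes, to 35. A macrophage gene was left out of its own score. Fold changes of low genes are understated by the added 0.5. The fits were tested on simulated data. Sets, members and lists were chosen with earlier results of these data known.

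Named genes were, per list, up to 4 with the smallest p among those called between the sets and up to 2 called in the other strains only; 11 fixed genes of bone and of CSF1 and RANKL signals; the highest members of the myeloid lists (8 of the macrophage list, 3 of each other); and up to 8 genes each way outside the lists that were called in both. Others were named after their values were seen. Alternatives were other scalings, pseudocounts of 0.1 and 1, other filters, libraries as units with the strain as a block, the title number as a covariate, all 42 strains in 1 fit, and each strain or library left out.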

Additional observations from a re-analysis of the deposited data

Results flagged for a closer look

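Among the 4 rich strains, 1 strain stood apart from the others in 5 of 107 genes or scores examined, by Dixon's ratio of the gap to the nearest strain over the whole range of log2 strain means. Chance alone puts about 1 in 20 such groups past the threshold used. Ccl7 was low in CC007 (12.7 scaled TPM, ratio 0.837) against 35.5, 31 and 29.5 in the other rich strains. Osm was high in CC055 (1.23, ratio 0.86), as was Plau (105, ratio 0.846). Rspo1, a Wnt agonist, was low in CC007 (0.133, ratio 0.862), and Pdk1 stood apart in CC055 (45.5, ratio 0.923) from 26.4, 27 and 25.8. CC055 had the highest myeloid score of the set. All 4 rich strains were above all 3 poor strains for Ccl7, Osm and Plau.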

How the results depend on the processing

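The 401 genes higher and 27 lower in the rich strains became 255 higher without a filter on low values, 708 and 130 with libraries as units and the strain as a block, 164 and 7 with the title number as a covariate, and 199 and 9 without CC040 and CC009, whose 2 libraries carry title numbers far apart. Leaving out 1 strain or library gave 221 to 458 higher and 12 to 49 lower genes. Of the slopes, 2167 positive calls became 4448 with unscaled TPM and 1203 without CC030 and CC071, and 1476 negative calls became 289 with unscaled TPM, 701 with protein-coding TPM and 500 without CC030 and CC071. The cause was not tested, except that the fits without strains hold fewer strains. None of the 428 genes called between the sets changed sign in an alternative, and 142 of the 3643 with a called slope did with unscaled TPM, none of them called there. Of 27 named genes outside the macrophage, MHC class II and osteoclast lists that were called between the sets, 21 lost the call with the title number as a covariate, 23 without CC040 and CC009, 13 without a filter on low values and 8 with all 42 strains in 1 fit, while Lgmn and Atf3 kept it in every alternative. No paired analysis was possible because the labels give the strains no shared replicate numbers. With 4 and 3 strains, differences of the size seen in most bone genes did not pass, which does not show that the sets were alike. Depth is not recorded, so counting error cannot be given.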
